A study of Mus musculus with 8 samples.

Results

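Complement genes were examined in the subcutaneous fat of diabetic mice. The list held 9 genes, chosen from the classical pathway (C1qa, C1qb, C1qc, C2, C4b), the alternative pathway (Cfd, Cfb, C3) and the receptors (C3ar1). A gene entered through every probe set whose platform annotation named it and no other gene. On that rule 6 genes entered with 12 probe sets (C1qa, C1qb, C1qc, C2, Cfb and C3ar1), of 18193 genes named on the array. The other 3 genes, Cfd (adipsin), C3 and C4b, are not analysed here: no probe set was tied to Cfd or C3 in the annotation used, and the 1 probe set tied to C4b was tied to C4a as well. The alternative pathway therefore rests on Cfb alone.

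The series held 8 male mice, each with 1 Affymetrix Mouse Genome 430 2.0 array of its fat. The labels give an age of 8 weeks. That is shorter than the 10 weeks of treatment, so it cannot be the age at which the fat was taken. The 4 placebo mice, numbered 6, 8, 10 and 14, were given water by gavage on 5 days per week for 10 weeks. The 4 NBC mice, numbered 5, 9, 11 and 13, were given niacin bound chromium, chromium complexed with nicotinic acid, in water at 10 mg per kg body weight on the same schedule. The strain, the genotype behind the diabetes and any other allele the groups share are not stated by the labels.

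Complement is a set of plasma and tissue proteins that marks particles and cells for removal. In the classical pathway C1q, built from the chains encoded by C1qa, C1qb and C1qc, binds its target and sets off the cleavage of C4 and C2. In the alternative pathway factor B, encoded by Cfb, is cut by factor D, the product of Cfd, while bound to C3b, and both pathways meet at C3. Fat is known for its part in this system: adipocytes secrete factor D under the name adipsin, together with C3 and factor B, whereas C1q chains are made mainly by tissue macrophages. C3ar1 encodes the receptor for the small fragment C3a and is carried by macrophages and other myeloid cells.

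In the RefSeq table the 3 C1q genes lay side by side on chromosome 4, in the order C1qb, C1qc and C1qa, with 0 other protein-coding genes between them. Cfb and C2, which encode closely related serine proteases, were likewise neighbours on chromosome 17, with 0 protein-coding genes between them. The promoter table held 3 of the 6 genes, and C1qa, C2 and Cfb had no entry. The 250 bases before the start of C1qb (chr4:136886201-136886450), C1qc (chr4:136892915-136893164) and C3ar1 (chr6:122856158-122856407), all on the minus strand of RefSeq build GRCm38.p6, are shown because the C1q genes moved together over the mice while C3ar1 took another course in part of them. Capitals mark AGGAAG or its reverse complement CTTCCT in C1qb and C1qc, and TGANTCA, the AP-1 site, in C3ar1. AGGAAG is a longer form of GGAA, the core bound by ETS factors. GGAA itself also stands in the C3ar1 window, and the counts below are of the longer form only.
C1qb: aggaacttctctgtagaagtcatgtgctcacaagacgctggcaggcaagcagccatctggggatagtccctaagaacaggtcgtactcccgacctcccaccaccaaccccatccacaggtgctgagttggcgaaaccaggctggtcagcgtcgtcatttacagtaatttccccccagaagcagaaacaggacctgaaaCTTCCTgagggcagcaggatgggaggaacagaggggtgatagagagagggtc
C1qc: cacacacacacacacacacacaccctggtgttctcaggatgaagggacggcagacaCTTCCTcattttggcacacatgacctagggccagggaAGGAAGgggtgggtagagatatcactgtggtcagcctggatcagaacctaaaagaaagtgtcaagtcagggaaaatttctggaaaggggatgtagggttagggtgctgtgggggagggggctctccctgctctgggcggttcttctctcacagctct
C3ar1: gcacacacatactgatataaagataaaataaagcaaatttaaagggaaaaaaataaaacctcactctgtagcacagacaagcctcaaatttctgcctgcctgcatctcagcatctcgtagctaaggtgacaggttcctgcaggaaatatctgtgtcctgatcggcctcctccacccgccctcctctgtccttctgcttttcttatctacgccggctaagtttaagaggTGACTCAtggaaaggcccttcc
AGGAAG on either strand occurred 1 time before C1qb, 52 bases from its start, 2 times before C1qc and 0 times before C3ar1. It was present in 29.5% of the 32851 RefSeq windows of this length. TGANTCA occurred 1 time before C3ar1, 22 bases from its start, 0 times before C1qb and C1qc, and in 6.75% of all windows. TATAAA, the TATA box, was also looked for. It occurred 1 time before C3ar1, 0 times before C1qb and C1qc, and in 12.4% of all windows. The match before C3ar1 lay near the far end of the window, away from the start of the gene. The motifs were picked with the sequences in view, and a match is a description of the letters only.

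Each value below is a MAS5 signal on a linear scale. Single mice are listed in the order 6, 8, 10 and 14 for the placebo group and 13, 11, 9 and 5 for the NBC group. With 2% of the values trimmed from either end, the mean signal of each of the 8 arrays was 1500.01. Spearman correlations between arrays were 0.941 to 0.975 within and 0.945 to 0.968 between groups. Adipocyte markers bore out the tissue label: all 10 measured members were bright, with Adipoq, the adiponectin gene, between 83886 and 108996 over the 8 mice. Transcripts of skeletal muscle stood far higher in 3 NBC mice. Their signal summed over 10 markers was 134877 in mouse 13, 145006 in mouse 11 and 134506 in mouse 5, against 15928 in NBC mouse 9 and a placebo range of 4351 to 22010. The ratio of the Gapdh control probe sets at the 3′ and 5′ ends, a sign of RNA integrity, was 1.47 in NBC mouse 5, 1.28 in mouse 11, 1.115 in mouse 13 and 0.844 in mouse 9, and ran from 0.92 to 1.04 over the placebo mice. Precision is limited by having 4 arrays per group.

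The comparison of NBC with placebo mice asked whether oral niacin bound chromium went with another level of these transcripts. All 6 genes had a higher mean in NBC mice, and by small amounts, 1.05 (C2) to 1.25 (C1qb) times the placebo mean. C1qa and C1qb lay at the upper end of this range, and C1qc, at 1.11, below Cfb and C3ar1. The groups overlapped for each of the 6 genes and each of the 12 probe sets, where 3.93% of all 11662 genes and 3.85% of all 22519 probe sets had groups that did not overlap. No member passed an adjusted p of 0.05 by limma (moderated test, Benjamini-Hochberg adjustment), nor did any probe set on the array (0 of 22519, or 0%, against 1400, or 6.22%, at an unadjusted p under 0.05). Without NBC mouse 9, 18 probe sets passed, 0 of them of the members. At an unadjusted p under 0.05 there was 1 member of 6, C1qa, where the share of all genes was 5.44%. The log2 difference (NBC minus placebo) was above 0 for 6 of 6 members and 12 of 12 probe sets, against 48.5% of all genes and 47.9% of all probe sets. Its median was 0.17 over the members and -0.0064 over all genes. These counts are not of independent units: C1qb, C2 and C3ar1 had 3 probe sets each, and the C1q genes encode 1 protein together. The members were also chosen with earlier results of these data known, so the counts are a description only.

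**Figure D1:**
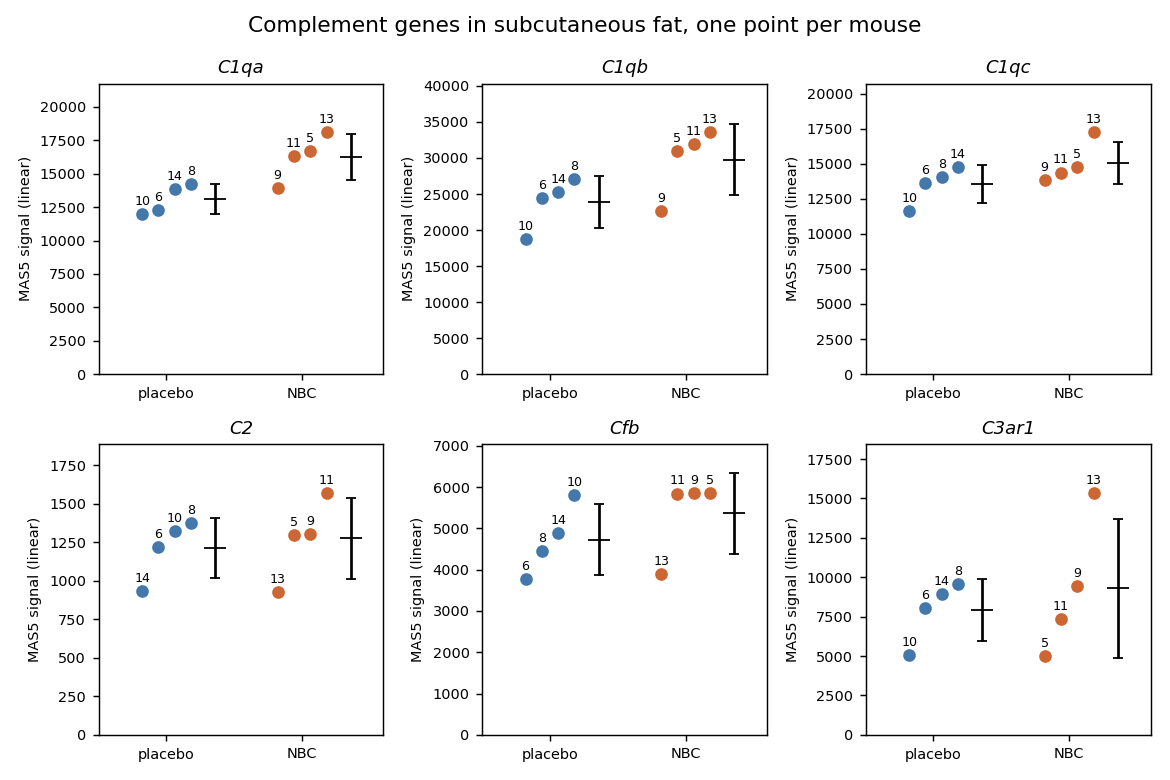
MAS5 signal (linear scale, from 0) of the representative probe set of each gene, 1 point per mouse with its number, placebo in blue and NBC in orange; the black bar is the mean ± SD of 4 mice. NBC mouse 13 is the highest for the 3 C1q genes and C3ar1 and among the lowest for C2 and Cfb, and the groups overlap in every panel.

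C1qa, which encodes the A chain of C1q (probe set 1417381_at), read 12278, 14223, 11961 and 13836 in the placebo group. The NBC group read 18119, 16297, 13940 and 16699. Mice 13, 11 and 5 lay above every placebo mouse, while NBC mouse 9 lay between placebo mice 14 and 8. The means were 13074.5 ± 1121 and 16264 ± 1735 (SD, n = 4 each), and the log2 values differed by 0.31 (SE 0.13). C1qa ranked 978 of the 22519 probe sets by p (limma, adjusted p = 0.778). With 1 mouse left out the difference ran from 0.26 to 0.38, and the smallest limma adjusted p over all alternatives was 0.331. Leaving out any 1 of placebo mice 6 and 10 and NBC mice 5, 11 and 13 took C1qa out of the genes at an unadjusted p under 0.05.

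C1qb, which encodes the B chain, was read by 3 probe sets. The brightest, 1437726_x_at, read 24423, 27048, 18804.5 and 25263 in the placebo group and 33601, 31884, 22587 and 31004.5 in the NBC group. The same 3 NBC mice stood above all placebo mice, and NBC mouse 9 fell below 3 of the 4. Its means were 23885 ± 3559 and 29769 ± 4908 (SD, n = 4 each), and the log2 values differed by 0.31 (SE 0.17, limma, adjusted p = 0.786). Leaving out placebo mouse 10 gave 0.20 and leaving out NBC mouse 9 gave 0.44, the extremes over the 8 mice. Probe set 1434366_x_at gave 0.28 (SE 0.13). NBC mice 13, 11 and 5 again stood above all placebo mice there, while NBC mouse 9 (12305) lay above 3 of the 4 and below placebo mouse 8 (13511). Probe set 1417063_at gave 0.24 (SE 0.15), with 15351, 19020, 13809 and 17579 in the placebo group and 23113, 18706, 18658 and 17244 in the NBC group. In that probe set only NBC mouse 13 exceeded every placebo mouse, and mouse 5 lay below placebo mice 8 and 14. An "_x_at" name marks probes that may also match other transcripts, and 1417063_at carries no such mark.

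C1qc, which encodes the C chain (1449401_at), read 13646, 14069.5, 11635 and 14784 in the placebo group and 17253, 14369, 13867 and 14753 in the NBC group. Only NBC mouse 13 stood above the placebo mice. The means were 13534 ± 1350 and 15060.5 ± 1506 (SD, n = 4 each), and the log2 values differed by 0.15 (SE 0.13, limma, adjusted p = 0.847). It was 0.084 without placebo mouse 10 and 0.088 without NBC mouse 13, and at most 0.20 with any other mouse left out. Mouse 13 was the highest and placebo mouse 10 the lowest in all 5 probe sets of the C1q genes. Between these mice the signal differed 1.51-fold for C1qa, 1.79-fold for C1qb and 1.48-fold for C1qc. After each gene's mean was subtracted, the root mean square distance over the 8 mice was 0.11 log2 units between C1qa and C1qb, 0.11 between C1qa and C1qc and 0.16 between C1qb and C1qc. Distances between a C1q gene and any of the 3 other members ran from 0.32 to 0.46. Such a distance also depends on how widely a gene varies, and the standard deviation of C1qc over the 8 mice was 0.16.

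The muscle signal and the Gapdh ratio were high in NBC mice 13, 11 and 5, the mice in which C1qa and the brightest C1qb probe set exceeded the placebo mice, and their part in the result was not tested. NBC mice 5 and 11 were both left out in an alternative chosen after the data were seen. It kept only NBC mice 13 and 9, so the muscle signal of mouse 13 remained. The C1qa difference was then 0.29 (SE 0.16) and that of C1qc 0.20 (SE 0.16). The brightest C1qb probe set gave 0.22 (SE 0.22), 1434366_x_at gave 0.21 (SE 0.16) and 1417063_at gave 0.35 (SE 0.18).

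C2, the serine protease that C1s cleaves in the classical pathway, was read by 3 probe sets that did not order the mice alike. The brightest, 1441912_x_at, read 1217, 1376, 1325 and 934 in the placebo group and 928, 1571, 1304 and 1295 in the NBC group. Mice 14 and 13, 1 of each group, stood lowest. The log2 difference was 0.061 (SE 0.19, limma, adjusted p = 0.964), and it was -0.046 without NBC mouse 11 and -0.057 without placebo mouse 14. Probe set 1416051_at, the only one without the "_x_at" mark, gave 0.20 (SE 0.15) with its highest signal in NBC mouse 9 (1216) and its lowest in placebo mouse 6 (718). The remaining probe set, 1457664_x_at, gave 0.096 (SE 0.16) and had its lowest signal in NBC mouse 13 (628).

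Cfb, factor B of the alternative pathway (1417314_at), read 3766, 4450, 5812 and 4881 in the placebo group and 3889, 5844, 5854 and 5862 in the NBC group. NBC mice 11, 9 and 5 were nearly level and just above placebo mouse 10, while NBC mouse 13 lay below 3 of the 4 placebo mice. The means were 4727 ± 857 and 5362 ± 982 (SD, n = 4 each), and the log2 values differed by 0.18 (SE 0.19, limma, adjusted p = 0.886). It was 0.32 without NBC mouse 13, the largest value with any 1 mouse left out, and 0.075 without placebo mouse 6, the smallest.

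C3ar1, the receptor for C3a, varied most among the members. Its brightest probe set, 1419483_at, read 8062, 9557.5, 5095 and 8937 in the placebo group and 15361, 7377, 9445 and 4984.5 in the NBC group. The NBC group held both the highest mouse, 13, and the lowest, 5, a 3.08-fold span, and placebo mouse 10 stood close to NBC mouse 5. The standard deviation over the 8 mice was 0.52 log2 units, larger than that of 93.4% of the 11662 genes. It was 0.16 to 0.28 for the 5 other members, where the median gene had 0.23. The means were 7913 ± 1976 and 9292 ± 4437 (SD, n = 4 each), and the log2 values differed by 0.15 (SE 0.34, limma, adjusted p = 0.950). Without NBC mouse 13 the difference was -0.13, and without placebo mouse 10 it was -0.047. Probe sets 1442082_at and 1419482_at gave 0.37 (SE 0.36) and 0.16 (SE 0.35), and both again had NBC mouse 13 as the highest mouse, with placebo mouse 10 as the lowest.

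**Figure D2:**
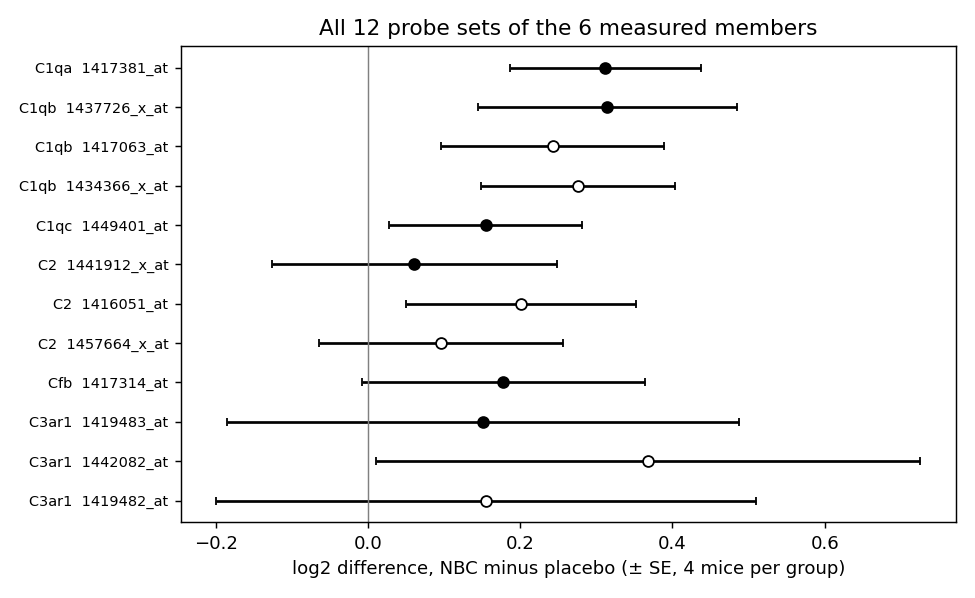
Log2 difference of the signal (NBC minus placebo, with a standard error from limma, 4 mice per group) for the 12 probe sets of the 6 measured genes; filled points are the representative probe sets. All 12 points lie above 0, between 0.061 and 0.37, and the bars are widest for C3ar1.

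The classical and the alternative pathway were set against each other within each mouse as the mean log2 value of the 3 C1q genes minus that of Cfb, each gene's mean over the 8 mice subtracted first. This difference was 0.26, 0.15, -0.58 and -0.00070 in the placebo group and 0.67, -0.083, -0.34 and -0.076 in the NBC group. NBC mouse 13 combined the highest C1q with a low Cfb, and placebo mouse 10 the lowest C1q with a high Cfb. The means were -0.041 ± 0.37 (placebo) and 0.041 ± 0.43 (NBC; SD, n = 4 each), so that NBC and placebo differed by 0.083, less than the spread between mice. With 1 mouse left out this value ran from -0.13 (without NBC mouse 13) to 0.21 (without NBC mouse 9), and it was -0.096 without placebo mouse 10. No test was made of it, as the genes were chosen with earlier results known. The C1q genes alone had means of -0.13 ± 0.16 (placebo) and 0.13 ± 0.17 (NBC; SD, n = 4 each) on this scale. C2, also of the classical pathway, was not part of this contrast, which is of C1q with Cfb only. The root mean square distance of its brightest probe set was 0.24 to Cfb and 0.34 to 0.38 to the C1q genes.

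**Figure D3:**
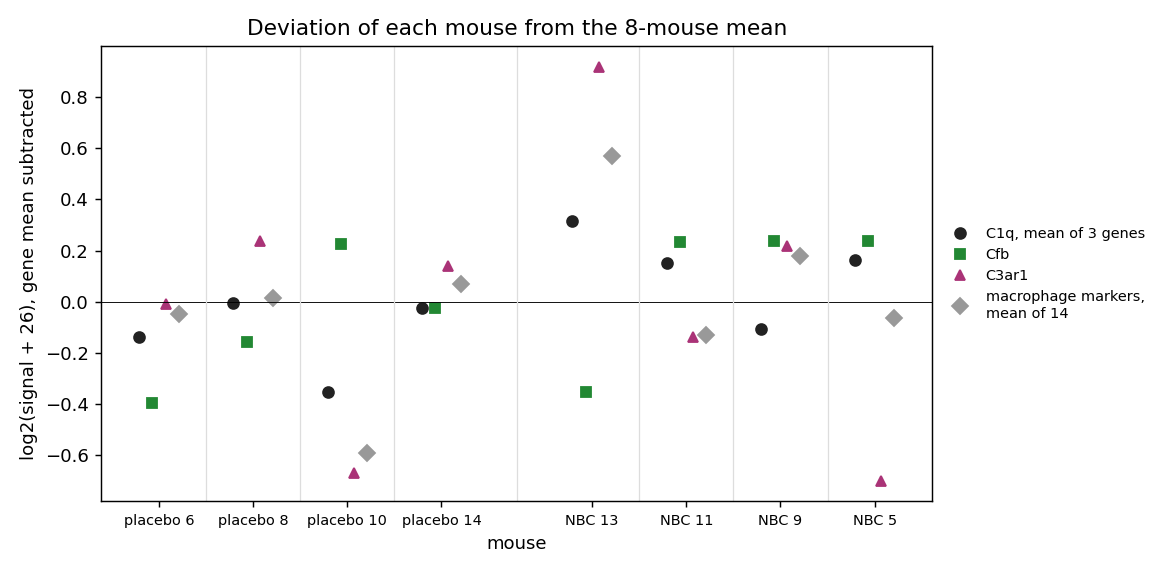
Deviation of each mouse from the mean of the 8 mice (log2 units, pseudocount of 26) for the mean of the 3 C1q genes, for Cfb, for C3ar1 and for the mean of 14 macrophage markers, with the placebo mice on the left and the NBC mice on the right. C3ar1 and the macrophage markers are highest in NBC mouse 13, where Cfb is at -0.35, and C3ar1 is lowest in NBC mouse 5, at -0.70.

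Macrophage markers were read beside these genes because C1q and C3ar1 are macrophage transcripts. All 14 listed markers were measured, and 14 of 14 had a difference above 0. Their summed signal ran from 146393 to 227200 in placebo and from 200458 to 335859 in NBC mice. Among the 3 brightest, the receptor gene Csf1r was higher in NBC without overlap (0.33, SE 0.13), and the lysozyme gene Lyz2 (0.15, SE 0.21) and the cathepsin gene Ctss (0.31, SE 0.20) overlapped. Csf1r was the only 1 of the 14 markers without overlap, where 3.93% of all genes had none. It was also the only 1 at an unadjusted p under 0.05 in limma's test (5.44% of all genes). In fat taken as a whole, any rise of such markers could not be split between more macrophages and more RNA per macrophage. The mean deviation of the 14 markers was -0.050, 0.015, -0.59 and 0.069 in the placebo group and 0.57, -0.13, 0.18 and -0.064 in the NBC group. It was highest in mouse 13 and lowest in placebo mouse 10, as C1q was.

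C1q and the markers deviated by different amounts in single mice of both groups. In NBC mice 11 and 5 the C1q mean lay 0.28 and 0.23 above the marker mean, and in NBC mice 13 and 9 it lay 0.26 and 0.29 below it (differences of -0.26 and -0.29). In placebo mouse 10 the C1q mean lay 0.24 above the marker mean, and in the other placebo mice it lay below it by less (-0.095 to -0.019). Over the groups, C1q minus the markers was 0.0087 ± 0.16 (placebo) and -0.0087 ± 0.30 (NBC; SD, n = 4 each), so that relative to the 14 markers the groups differed by -0.017. C3ar1 lay within 0.35 of the markers in 7 mice and 0.64 below them in NBC mouse 5 (a difference of -0.64). The root mean square distance to the marker mean was 0.18 to 0.25 for the C1q genes, 0.27 for C3ar1 and 0.49 for both C2 and Cfb. The marker mean itself had a standard deviation of 0.32 over the 8 mice. Because this distance also depends on how widely a gene varies, it does not rank likeness of pattern alone.

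By the same distance, the 5 other genes closest to the C1q mean over the 8 mice were Sh3d19, Atp6ap2, Map3k3, Nfkbil1 and Dpysl2, at 0.071 to 0.075 log2 units, where the median gene lay at 0.29. Atp6ap2, an accessory protein of the proton pump of endosomes and lysosomes, read 28889 to 37686 except in placebo mouse 10 (24589) and NBC mouse 9 (28167). Closest to C3ar1 were 5 genes at 0.10 to 0.13, where the median gene lay at 0.54. Most of them encode proteins of myeloid cells: the phagosomal metal transporter Slc11a1, the innate receptor Tlr13, the immunoglobulin receptor Fcgr3, the leukotriene synthesis factor Alox5ap and Cd300c2. Slc11a1 read 9683 in NBC mouse 13, 3045 in NBC mouse 5 and 2771 in placebo mouse 10, the same extremes as C3ar1. Closest to Cfb were Rbm28, Tmem100, the channel gene Kcnj8, the metalloreductase gene Steap4 and the apolipoprotein gene Apoc1 (0.089 to 0.10, median gene 0.33). Steap4 read 7765 in NBC mouse 13 and 7339 in placebo mouse 6, its 2 lowest mice, as for Cfb. Closest to C2 were Txnrd2, Dock9, the junction genes Jam2 and Cldn5, and Ccdc181 (0.085 to 0.10, median gene 0.32).

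A list of 51 other complement genes was drawn up from general knowledge of the system, with earlier results of these data known. Of these, 15 had only probe sets below the signal filter and 11 had no probe set naming them alone. The other 25 were measured. The difference was above 0 for 19 and below 0 for 6, with a median of 0.11, against 48.5% above 0 and a median of -0.0064 over all genes. None passed an adjusted p of 0.05 in limma's test, 2 had an unadjusted p under 0.05 (5.44% of all genes did), and 1 had groups that did not overlap (3.93% of all genes). The 7 genes of recognition molecules and early proteases, such as C1ra, C1s1 and the mannose-binding lectin gene Mbl1, had 6 differences above 0 and a median of 0.14. Of the early proteases, C1ra gave 0.14 (SE 0.11) and C1s1, the protease of C1 that cleaves C4 and C2, 0.065 (SE 0.15). Masp1, a protease of the lectin pathway, was the 1 gene of the 7 below 0 (-0.50, SE 0.53). It was dim, from 70.4 in NBC mouse 13 to 729 in NBC mouse 11. Its other probe sets, all below the signal filter, gave 0.69, 0.54, 0.49 and -0.88. Ficolin A, Fcna, a recognition molecule of the lectin pathway, averaged 4787.5 in placebo and 5801 in NBC mice (0.30, SE 0.18).

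Among 9 regulators, 6 lay above 0 and 3 below. Cfi, factor I, which inactivates C3b and C4b, was the only one of the 25 genes without overlap. It read 306, 439.5, 524 and 377 in the placebo group and 546, 539.6, 691 and 599 in the NBC group. The gap between placebo mouse 10 and NBC mouse 11 was small. The log2 difference was 0.52 (SE 0.17; limma, adjusted p = 0.730), and with 1 mouse left out it ran from 0.39 to 0.64. Serping1, the C1 inhibitor, averaged 18390 and 21648 (0.23, SE 0.13). Vitronectin, Vtn, gave 0.28 (SE 0.19), and 0.089 (SE 0.30) in its second probe set. Properdin, Cfp, which stabilises the alternative convertase, gave 0.16 (SE 0.15). The membrane regulators Cd55, Cd59a and Cr1l gave -0.36 (SE 0.25), -0.17 (SE 0.12) and 0.0068 (SE 0.11) in their brightest probe sets. The other kept probe sets of Cd55 lay on the opposite side of 0, at 0.17 (SE 0.24) and 0.45 (SE 0.27). Those of Cd59a and Cr1l gave -0.41 (SE 0.20) and 0.12 (SE 0.20).

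Of the 7 receptors, 6 lay above 0. Cd93, a surface protein of endothelial and myeloid cells once described as a C1q receptor, read 4331.5 to 7880 in placebo and 7489 to 11690.5 in NBC mice in its brightest probe set (0.50, SE 0.22; limma, adjusted p = 0.778). Its other kept probe sets gave 0.23 (SE 0.12), 0.031 (SE 0.35) and -0.38 (SE 0.28), and the mean over the gene's kept probe sets differed by 0.095. The C5a receptor C5ar1 gave 0.11 (SE 0.33) in its brightest probe set and -0.52 (SE 0.61) in the other, and the macrophage receptor Vsig4, which binds C3b, 0.053 (SE 0.17). The integrin genes Itgam, Itgax and Itgb2 gave 0.19 (SE 0.53), 0.21 (SE 0.29) and 0.23 (SE 0.35). Only 2 genes of the terminal pathway were measured, C6 (0.095, SE 0.27) and C8g (-0.48, SE 0.33), and C8g was dim, at 426 in placebo and 316 in NBC mice. Of the 8 terminal genes listed, 4 fell below the signal filter and 2 had no probe set naming them alone.

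**Figure D4:**
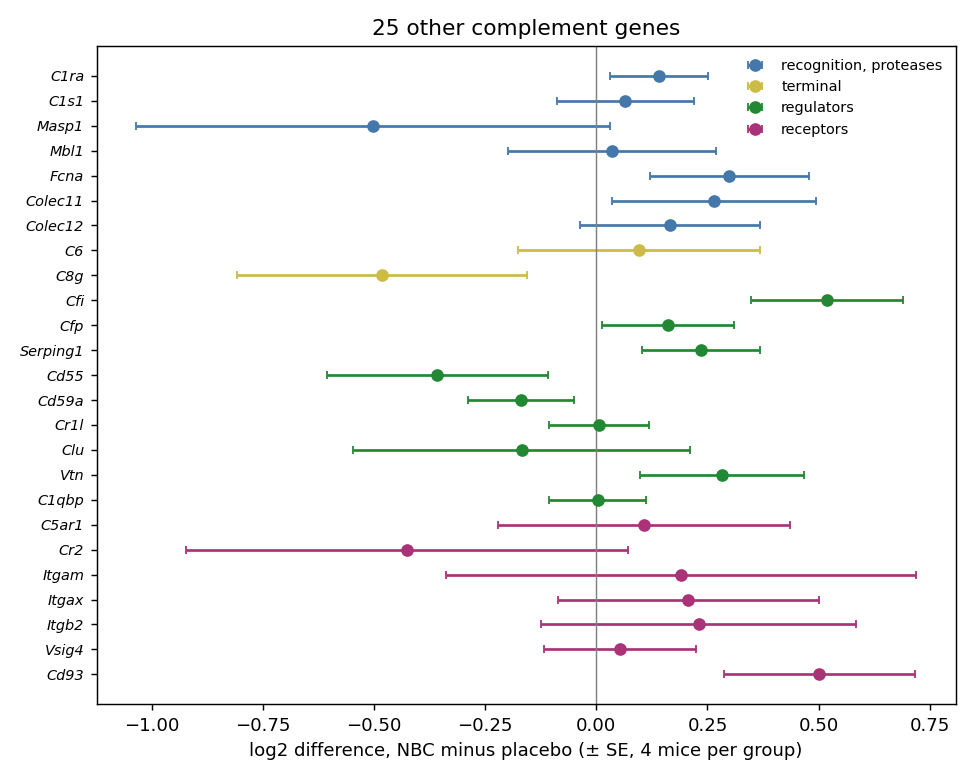
Log2 difference of the signal (NBC minus placebo, with a standard error from limma, 4 mice per group) for the representative probe sets of 25 other complement genes, coloured by role. The point of Cfi lies at 0.52 and that of Cd93 at 0.50, and 19 of the 25 points are above 0.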

How the data were processed

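RNA of 8 fat samples was read on 8 arrays, and the deposited values are linear signal intensities, 1 for each probe set of an array, made by the authors with MAS5 per the submitters' processing notes, with no version stated. MAS5 sets each probe against a mismatch partner, which leaves dim transcripts noisy, and the equal trimmed means show that arrays were scaled to a common level. With such scaling a set of very bright transcripts can lower the rest of its array, and whether it did so here was not tested. Groups and mouse numbers came from the sample titles. No batch is given in the sources used here.

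Gene names came from the platform annotation, with symbols checked against RefSeq (GRCm38.p6) through Entrez identifiers. Control probe sets (64 of 45101) were left out. A pseudocount of 26, the 10th percentile of the table, was added before log2 was taken, so differences of dim transcripts are understated. The 22519 probe sets with a mean at or above the median (a signal of 275) were tested with limma 3.58.1 in R 4.3.3 (lmFit, eBayes, no covariate), with Benjamini-Hochberg adjustment over all of them. All 12 probe sets of the members passed this filter. A gene was represented by its brightest kept probe set, and a standard error is that of the limma fit. The script was tested on simulated arrays.

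The members and lists were chosen with earlier results of these data known. Text names every member and, of the other complement genes, those without overlap, filled up to 6 by smallest unadjusted p (Cfi, Cd93, Serping1, Fcna, Vtn and C8g). C1ra, C1s1, Masp1, Cfp, Cd55, Cd59a, Cr1l, C5ar1, Vsig4, the integrin genes and C6 were added as examples of their groups after their values were seen. The rule for the most similar genes named C1q and Cfd, and C3ar1, Cfb and C2 were used after Cfd was found to have no probe set. Marker lists for other cells were read in the same fit. Differences above 0 were found for 1 of 10 adipocyte, 10 of 10 fibroblast, 10 of 10 skeletal muscle, 0 of 9 lymphocyte, 4 of 7 neutrophil and mast cell, 3 of 6 endothelial, 0 of 2 hepatocyte and 1 of 2 epithelial markers.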

Additional observations from a re-analysis of the deposited data

Results flagged for a closer look

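The Cfb signal of NBC mouse 13, 3888.6, stood apart from the other NBC mice, which lay between 5844 and 5862. It was the only such value among 24 groups of 4 mice examined (the 6 members and the 6 named other complement genes). Chance alone gives about 1 such value in 20 groups, so a single one among 24 was not unusual. The cause of the lower Cfb value was not tested.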

How the results depend on the processing

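No paired analysis was possible because no mouse number occurs in both groups. No member or named complement gene passed the adjusted threshold of limma under any alternative (0 of 298 values), and C1qa, C1qb, C1qc and Cfb stayed above 0 in every one. The C2 difference was below 0 with 1 mouse left out (lowest -0.057, highest 0.20) and with NBC mice 5 and 11 both left out (-0.12, and -0.055 in 1457664_x_at). That of C3ar1 was -0.036 with array quality weights and -0.13 to 0.41 with 1 mouse left out, and its probe set 1419482_at gave -0.059 and -0.11 to 0.42. Without NBC mice 5 and 11, C3ar1 gave 0.64 (SE 0.31), with 0.67 (SE 0.33) in 1419482_at and 0.88 (SE 0.37) in 1442082_at. The count of members at an unadjusted p under 0.05 was 0 with arrays centred on their medians, without the filter and without NBC mice 5 and 11, and 0 to 2 with 1 mouse left out. For the other complement genes it was 1 with arrays centred on their medians and with the stricter filter, 5 without NBC mice 5 and 11, and 1 to 3 with 1 mouse left out. Over all probe sets it was 2126 with array weights, 2396 without the filter and 1037 to 2549 with 1 mouse left out, and 0 to 18 passed the adjusted threshold with 1 mouse left out. These causes were not tested, apart from the larger number tested without the filter. Leaving out NBC mice 5 and 11 was chosen after seeing the data. The probe sets of Cfi and C8g, with signals close to the array medians, are limited by signal over background.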
